A study of Mus musculus with 4 samples.

Results

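The WNT ligands, their receptors and their secreted antagonists were described here in rib chondrocytes of 4 mouse genotypes. Members were genes whose symbol in the annotation of the array is that of a *Wnt*, *Fzd*, *Sfrp* or *Dkk* gene, or is *Sost*, *Sostdc1*, *Frzb*, *Wif1*, *Lrp5*, *Lrp6*, *Axin2* or *Lef1*. They came to 45 of the 18193 genes with a probe set of their own and were read by 87 of the 45037 probe sets. *Tcf7* was on the same list and was not analysed here. By role there were 19 ligands, 12 receptors, 12 antagonists and 2 nuclear or feedback genes, and each was represented by its brightest probe set, the one with the highest mean log2 signal over the arrays.

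WNT proteins are lipid-modified ligands that bind Frizzled receptors, together with the co-receptors LRP5 or LRP6 when the signal runs through β-catenin and the TCF/LEF factors, or with other co-receptors when it runs through planar cell polarity and calcium. Secreted antagonists act outside the cell, the SFRP proteins and WIF1 by binding WNT ligands and the Dickkopf proteins and sclerostin by binding the LRP co-receptors. In the growth plate these signals are known for setting the pace of chondrocyte maturation and the arrangement of proliferating chondrocytes into columns, and β-catenin signalling at the edge of cartilage is known for favouring the osteoblast fate.

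The 4 arrays held RNA of costal chondrocytes of double mutant, *Matn3* mutant, XBP1 null and wild type mice at postnatal day 5, all on C57BL6/J. The *Matn3* mutation is V194D in matrilin-3, carried on both alleles as a model of multiple epiphyseal dysplasia (EDM5). XBP1 was lost through deletion of an exon of *Xbp1* by Cre under the *Col2a1* promoter, so only cells that have used this promoter lose it, and the double mutant carried both changes. Cells came from pooled litters, and RNA was pooled from 3 extractions for 1 array per genotype, so differences between arrays have no replicate check and no p-value. *Xbp1* itself had signals of 9548 in double mutant, 11403 in *Matn3* mutant and 7877 in XBP1 null chondrocytes, against 8183 in wild type, and whether its probe set reads the deleted exon was not analysed here. The chondrocyte genes *Col2a1* and *Acan* had signals of 7475 to 13571 on every array.

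The pools differed in ways other than genotype. Genes of the Y chromosome (*Eif2s3y*, *Kdm5d*, *Uty*) had signals of 0.0320 to 1.65 in the *Matn3* mutant pool and of 135 to 855 in the other 3 pools, and the part of this in the results was not tested. The 11 endothelial markers summed to signals of 925 in double mutant, 613 in *Matn3* mutant and 4455 in XBP1 null chondrocytes, against 118 in wild type. In bulk RNA, fewer cells of a type and less RNA per cell cannot be told apart.

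Of the 45 members, 25 had a mean log2 signal at or above the median of all probe sets, 5.38, which is a signal of 41.6. They were 5 of the 19 ligands, 10 of the 12 receptors, 8 of the 12 antagonists and both nuclear or feedback genes. Most *Wnt* genes were thus read below the median and most receptors and antagonists above it, but a dim probe set need not mean a weakly expressed gene. Apart from this sorting, signals of different genes were not compared with each other, because probe sets differ in how strongly they bind.

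**Figure D1:**
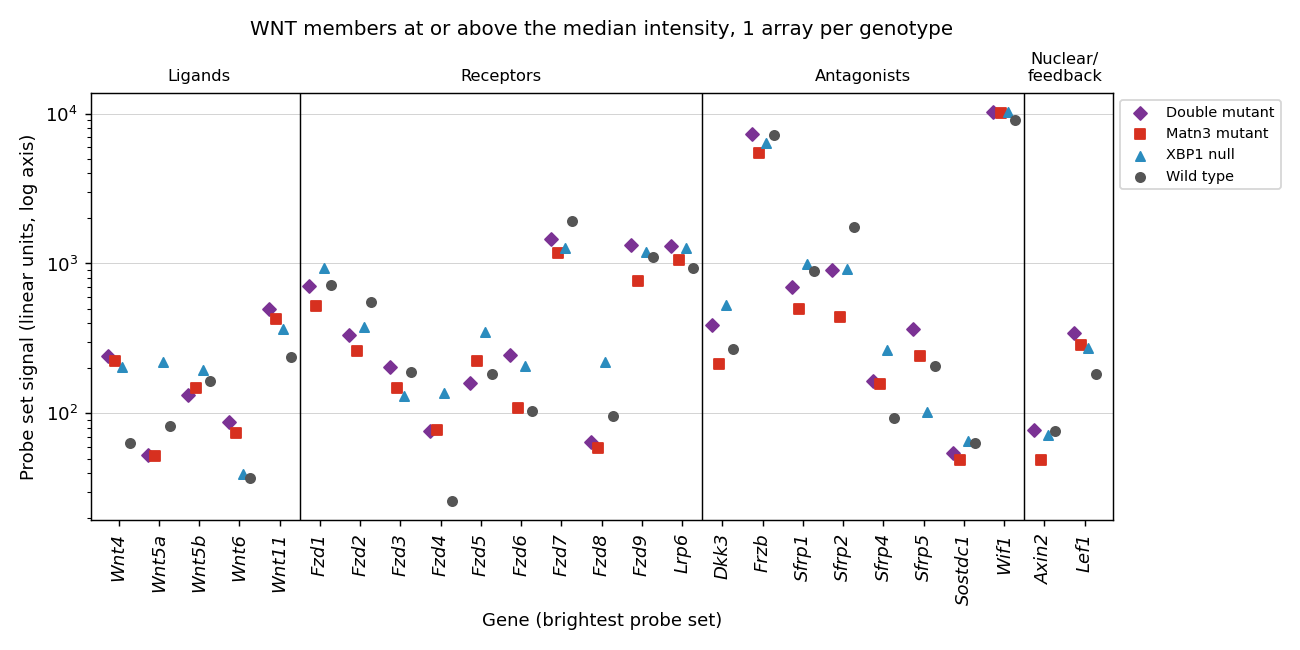
Signals of the 25 members at or above the median intensity, on a log axis in linear units, with 1 point per array for double mutant, *Matn3* mutant, XBP1 null and wild type chondrocytes and genes grouped by role. *Wnt4* sits at 205 to 243 on the mutant arrays and at 63.0 in wild type, while *Wif1* lies between 9022 and 10187 on every array.

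Following the threshold of the study's methods, differences over 1.5-fold were counted. In *Matn3* mutant against wild type, 6 of the 25 members were higher (24.0%, against 13.2% of all 10982 genes at or above the median) and 7 were lower (28.0%, against 17.6%). In XBP1 null against wild type, 9 members were higher (36.0%, against 18.8%) and 3 were lower (12.0%, against 5.82%). In double mutant against *Matn3* mutant, 6 members were higher (24.0%, against 11.9%) and 0 were lower (against 3.00%). In double mutant against XBP1 null, 3 members were higher (12.0%, against 7.38%) and 5 were lower (20.0%, against 10.5%).

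In the same order, the median log2 difference of the 25 members was -0.32, 0.24, 0.30 and 0.00, and that of all genes at or above the median was -0.08, 0.10, 0.19 and -0.01. *Matn3* mutant and XBP1 null were set against the same wild type array, and the double mutant array entered both of the other comparisons, so only *Matn3* mutant against wild type and double mutant against XBP1 null, or XBP1 null against wild type and double mutant against *Matn3* mutant, share no array. Over 1.5-fold in at least 1 comparison were 19 of the 25 members, and the same share over all genes was not computed. The count thus only sorts the members for description. The other 6, *Wnt5b*, *Fzd1*, *Lrp6*, *Frzb*, *Sostdc1* and *Wif1*, stayed within 1.5-fold in all 4 by their brightest probe set.

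**Figure D2:**
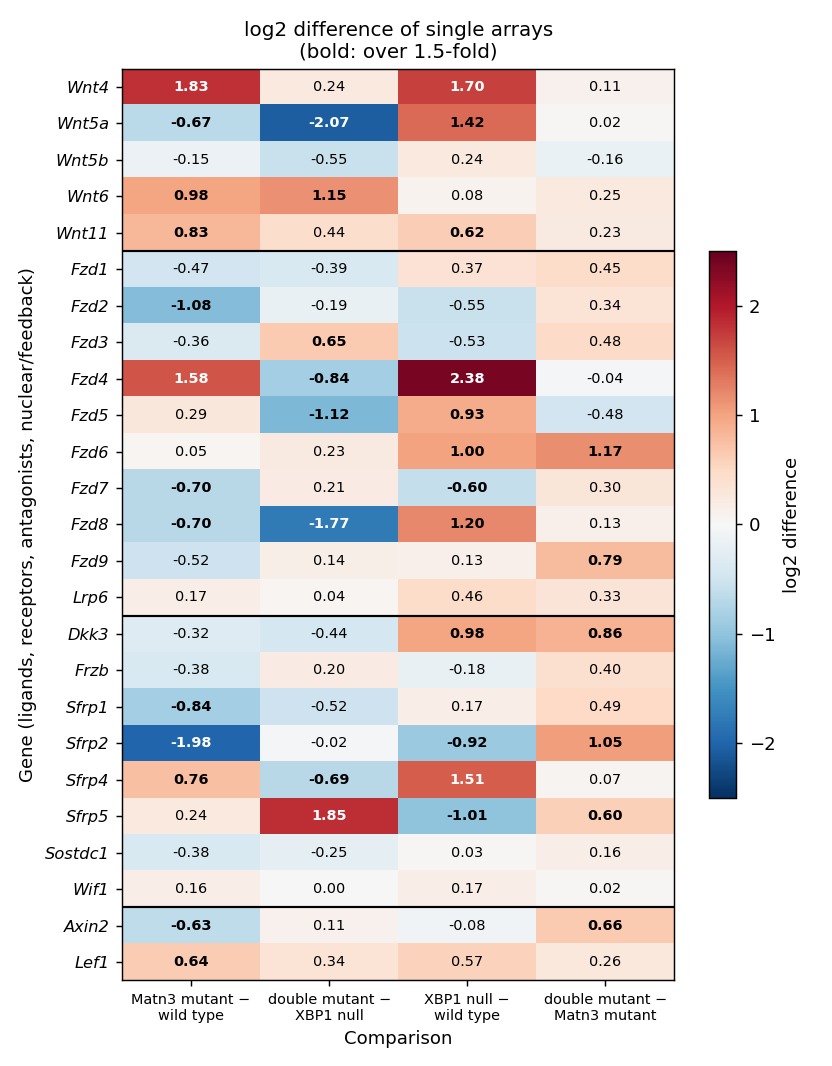
Log2 differences between single arrays for the 25 members at or above the median intensity, with 1 column per comparison, genes from ligands at the top to nuclear or feedback genes at the bottom, and differences over 1.5-fold in bold. The *Wnt4* row reads 1.83 and 1.70 against wild type and 0.24 and 0.11 for double mutant against each single mutant.

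Among the ligands, *Wnt4* and *Wnt11* were higher in both single mutants than in wild type, *Wnt6* was higher with the *Matn3* mutation on both XBP1 backgrounds, and *Wnt5a* was high only on the XBP1 null array. *Wnt4*, which takes part in joint and cartilage development, had signals of 243 in double mutant, 225 in *Matn3* mutant and 205 in XBP1 null chondrocytes, against 63.0 in wild type. All 3 mutant arrays thus stood above the wild type array and close to each other. The log2 difference was 1.83 (3.57-fold) in *Matn3* mutant and 1.70 (3.26-fold) in XBP1 null against wild type, and the double mutant was within 1.18-fold of both single mutants. The other *Wnt4* probe set, just below the median, had signals of 73.9, 74.8 and 73.0 on the mutant arrays in the same order, against 5.68 in wild type.

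*Wnt11*, a ligand of the planar cell polarity branch, was ordered in the same way as *Wnt4*, with smaller steps. Its signals were 497 in double mutant, 424 in *Matn3* mutant and 367 in XBP1 null chondrocytes, against 238 in wild type. It was 1.78-fold higher in *Matn3* mutant and 1.54-fold higher in XBP1 null than in wild type (0.62 on the log2 scale, and 0.53, which is under 1.5-fold, after quantile normalization). The double mutant was within 1.35-fold of both single mutants.

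Promoter sequence is shown for *Wnt4* and *Wnt11*, the ligands at or above the median that were over 1.5-fold higher in both single mutants than in wild type. That pattern was not the rule for printing, and *Wnt4* was printed for the size of its largest difference. *Wnt5a* differed by more than *Wnt4*, but no promoter sequence was available for it. Each sequence is the 250 bases upstream of the annotated start, on the strand of the gene, from RefSeq on GRCm38.p6. *Wnt4* lies on the plus strand at chr4:137277385-137277634 and *Wnt11* on the plus strand at chr7:98834862-98835111. Capitals mark letters that match a searched motif on either strand: the TCF/LEF motif (CTTTGAA or CTTTGAT), the core of the motif bound by XBP1 (ACGTGG), the ER stress element (CCAAT and CCACG set apart by a fixed spacer) or the GC box (GGGCGG).
Wnt4: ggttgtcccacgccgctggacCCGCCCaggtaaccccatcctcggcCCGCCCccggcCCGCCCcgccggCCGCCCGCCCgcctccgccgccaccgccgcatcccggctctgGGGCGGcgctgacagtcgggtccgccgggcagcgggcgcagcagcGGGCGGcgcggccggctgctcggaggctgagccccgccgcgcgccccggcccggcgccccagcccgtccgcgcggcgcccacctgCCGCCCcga
Wnt11: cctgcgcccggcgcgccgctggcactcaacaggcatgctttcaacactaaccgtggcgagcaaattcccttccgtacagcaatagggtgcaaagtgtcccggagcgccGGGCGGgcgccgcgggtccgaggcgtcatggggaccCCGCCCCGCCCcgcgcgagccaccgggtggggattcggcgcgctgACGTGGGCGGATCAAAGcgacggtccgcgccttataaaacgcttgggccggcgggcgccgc
The *Wnt4* stretch held 8 GC boxes and none of the other motifs. The *Wnt11* stretch held the XBP1 core beginning 61 bases before the start and the TCF/LEF motif beginning 51 bases before it, with a GC box between them that shares 2 bases with the XBP1 core. *Wnt11* was picked for printing because its window held the TCF/LEF motif and the XBP1 core, so their presence there is not a finding. For a gene with several windows, the one with the most matches to these motifs was printed.

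Across the table of promoters, 30 of the 45 members had a window of 300 bases. The TCF/LEF motif was in windows of 3 members, *Dkk1*, *Wnt5b* and *Wnt11*, and in 8.65% of all 32851 windows. The XBP1 core was in windows of 4 members, *Wnt5b*, *Wnt9a*, *Wnt11* and *Fzd9*, and in 8.31% of all windows. The ER stress element was in 0 member windows and 0.119% of all windows. GC boxes were in 27 of the 36 member windows and in 35.7% of all windows. This motif was added after the sequences had been seen, so its shares are only a description. The *Wnt4* and *Wnt11* stretches were 85.2% and 70.8% G and C, against a median of 52.4% over all windows. A match of letters is a description and not a site of binding.

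*Wnt6*, a ligand of the β-catenin branch, separated the arrays by *Matn3* genotype. It had signals of 87.8 in double mutant and 73.9 in *Matn3* mutant chondrocytes, against 39.6 in XBP1 null and 37.3 in wild type. It was 1.98-fold higher in *Matn3* mutant than in wild type and 2.22-fold higher in double mutant than in XBP1 null. Its XBP1 null and wild type signals were under the filter level of 41.6, so it passed the filter through the arrays with the *Matn3* mutation. Its dimmer probe set, with signals of 4.66 to 13.8, differed in the same direction (log2 differences of 1.37 and 1.39).

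*Wnt5a*, the ligand needed for the orientation of cells during limb elongation, had signals of 52.5 in double mutant, 51.9 in *Matn3* mutant and 221 in XBP1 null chondrocytes, against 82.5 in wild type. The XBP1 null array was the high one, and both arrays with the *Matn3* mutation were below wild type. The log2 difference was 1.42 (2.67-fold) in XBP1 null and -0.67 in *Matn3* mutant against wild type, and -2.07 in double mutant against XBP1 null. The next brightest probe set gave 1.01, -0.75 and -1.60 for the same comparisons, and a dim one with signals of 2.04 to 4.40 gave 1.06 for *Matn3* mutant against wild type. *Wnt5b*, which promotes the early steps of chondrocyte differentiation, had signals of 132 to 194 and no difference over 1.5-fold, while its other probe set was 1.92-fold higher in XBP1 null than in wild type.

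Among the receptors, 3 patterns stood out by value: *Fzd4*, *Fzd5* and *Fzd8* were highest on the XBP1 null array, *Fzd6* was higher on both arrays without XBP1, and *Fzd2* and *Fzd7* were highest in wild type. *Fzd4*, known for its role in the blood vessels of the retina, had signals of 76.0 in double mutant, 77.9 in *Matn3* mutant and 136 in XBP1 null chondrocytes, against 26.1 in wild type. It was 5.21-fold higher in XBP1 null and 2.99-fold higher in *Matn3* mutant than in wild type, and 1.79-fold lower in double mutant than in XBP1 null. Its wild type signal was under the filter level of 41.6, so it passed the filter through the mutant arrays. The next brightest *Fzd4* probe set, with signals of 56.6, 44.8 and 120 on the mutant arrays in the same order, against 55.7 in wild type, was also high in XBP1 null (2.15-fold), but went the other way in *Matn3* mutant against wild type (log2 difference of -0.31).

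*Fzd8*, a receptor of the β-catenin branch, resembled *Wnt5a*. It had signals of 64.2 in double mutant, 58.8 in *Matn3* mutant and 219 in XBP1 null chondrocytes, against 95.6 in wild type. It was 2.29-fold higher in XBP1 null and 1.63-fold lower in *Matn3* mutant than in wild type, and 3.41-fold lower in double mutant than in XBP1 null. The other probe set agreed in direction, with log2 differences of 0.68, -0.15 and -0.79 for the same comparisons.

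*Fzd5* had signals of 160 in double mutant, 223 in *Matn3* mutant and 348 in XBP1 null chondrocytes, against 183 in wild type. It was 1.90-fold higher in XBP1 null than in wild type and 2.17-fold lower in double mutant than in XBP1 null. For this probe set the double mutant was therefore the lowest array and XBP1 null the highest. The other *Fzd5* probe set had signals of 66.2, 106 and 107 on the mutant arrays in the same order, against 71.5 in wild type. With it, *Matn3* mutant and XBP1 null were close to each other, and double mutant was 1.60-fold lower than *Matn3* mutant.

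*Fzd6*, which like *Fzd3* is known for planar cell polarity, had signals of 244 in double mutant and 208 in XBP1 null chondrocytes, against 108 in *Matn3* mutant and 104 in wild type. Both arrays without XBP1 stood above both arrays with it, by 2.26-fold in double mutant against *Matn3* mutant and by 2-fold in XBP1 null against wild type. *Fzd3* had signals of 204, 147 and 130 in double mutant, *Matn3* mutant and XBP1 null chondrocytes, against 188 in wild type, and this probe set was over 1.5-fold only in double mutant against XBP1 null (1.57-fold higher). The other 2 *Fzd3* probe sets at or above the median were lower in XBP1 null than in wild type by more than 1.5-fold (1.66-fold and 2.13-fold), and 1 of them was 1.80-fold higher in double mutant than in *Matn3* mutant. The other 2 probe sets of *Fzd6*, with signals of 1.44 to 20.8, were also higher with the loss of XBP1 on both backgrounds, but were lower in double mutant than in XBP1 null (log2 differences of -1.32 and -1.95).

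*Fzd2* had signals of 331 in double mutant, 262 in *Matn3* mutant and 379 in XBP1 null chondrocytes, against 554 in wild type. It was 2.12-fold lower in *Matn3* mutant than in wild type, and its other 2 probe sets were 1.65-fold and 2.39-fold lower. *Fzd7* had signals of 1453, 1178 and 1259 in the same mutants, against 1908 in wild type, and was 1.62-fold lower in *Matn3* mutant and 1.52-fold lower in XBP1 null. Both receptors were below wild type on all 3 mutant arrays.

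*Fzd9*, known for its part in bone formation in mice, was lowest in the *Matn3* mutant, with signals of 1321 in double mutant, 765 in *Matn3* mutant and 1201 in XBP1 null chondrocytes, against 1098 in wild type. The double mutant was 1.73-fold above the *Matn3* mutant. The co-receptor *Lrp6* and the receptor *Fzd1* were within 1.5-fold in the 4 comparisons made, with signals of 930 to 1316 and of 519 to 926.

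For *Fzd4*, which had the largest single difference among receptors at or above the median, the 250 bases upstream of the start lie on the plus strand at chr7:89404116-89404365 (RefSeq, GRCm38.p6), with GC boxes in capitals.
Fzd4: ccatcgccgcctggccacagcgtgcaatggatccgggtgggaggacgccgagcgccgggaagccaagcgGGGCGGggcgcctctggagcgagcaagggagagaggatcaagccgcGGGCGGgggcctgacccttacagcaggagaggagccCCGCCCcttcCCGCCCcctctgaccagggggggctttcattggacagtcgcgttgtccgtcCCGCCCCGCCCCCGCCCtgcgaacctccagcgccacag
The stretch held 7 GC boxes and neither the TCF/LEF motif, the XBP1 core nor the ER stress element, and was 72.8% G and C.

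Among the antagonists, *Dkk3* was higher on both arrays without XBP1, *Sfrp2* was highest in wild type, *Sfrp4* was highest in XBP1 null and *Sfrp5* was lowest in XBP1 null. *Sfrp2*, a secreted frizzled-related protein, had signals of 910 in double mutant, 440 in *Matn3* mutant and 921 in XBP1 null chondrocytes, against 1739 in wild type. It was 3.96-fold lower in *Matn3* mutant and 1.89-fold lower in XBP1 null than in wild type. The double mutant was 2.07-fold above the *Matn3* mutant and within 1.01-fold of XBP1 null.

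*Sfrp5* had signals of 368 in double mutant, 243 in *Matn3* mutant and 102 in XBP1 null chondrocytes, against 206 in wild type. It was 2.01-fold lower in XBP1 null than in wild type, 1.51-fold higher in double mutant than in *Matn3* mutant, and 3.60-fold higher in double mutant than in XBP1 null. After quantile normalization the log2 difference between double mutant and *Matn3* mutant was 0.49, under 1.5-fold, instead of 0.60. The loss of XBP1 thus went with a lower *Sfrp2* and *Sfrp5* signal on the *Matn3* wild type background and with a higher signal of both on the *Matn3* mutant background.

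The upstream stretches of *Sfrp2* (plus strand, chr3:83766071-83766320) and *Sfrp5* (minus strand, chr19:42202253-42202502) are shown as those with the largest differences among antagonists at or above the median, both from RefSeq on GRCm38.p6 and with GC boxes in capitals.
Sfrp2: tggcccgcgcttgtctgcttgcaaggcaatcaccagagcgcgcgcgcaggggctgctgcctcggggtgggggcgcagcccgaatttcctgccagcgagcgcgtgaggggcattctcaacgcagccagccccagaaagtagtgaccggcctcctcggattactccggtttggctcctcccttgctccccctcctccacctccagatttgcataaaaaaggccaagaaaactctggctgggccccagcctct
Sfrp5: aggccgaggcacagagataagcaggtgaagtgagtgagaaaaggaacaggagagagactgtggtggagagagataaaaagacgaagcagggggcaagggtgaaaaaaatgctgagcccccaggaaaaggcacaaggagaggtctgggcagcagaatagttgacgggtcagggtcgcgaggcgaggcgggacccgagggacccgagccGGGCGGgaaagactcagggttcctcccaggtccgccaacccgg
*Sfrp2* held none of the searched motifs and *Sfrp5* a single GC box. They were 63.6% and 59.6% G and C.

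*Sfrp4* had signals of 164 in double mutant, 157 in *Matn3* mutant and 264 in XBP1 null chondrocytes, against 92.8 in wild type. It was 2.85-fold higher in XBP1 null and 1.69-fold higher in *Matn3* mutant than in wild type, and 1.61-fold lower in double mutant than in XBP1 null. All 3 mutant arrays were above wild type. *Sfrp1* had signals of 697, 496 and 997 in double mutant, *Matn3* mutant and XBP1 null chondrocytes, against 886 in wild type, and was 1.78-fold lower in *Matn3* mutant than in wild type. Its other 4 probe sets did not agree on this difference, with log2 values of -1.02, -0.02, 0.30 and 0.65.

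*Dkk3*, a Dickkopf family member that differs from the others in its binding partners, had signals of 388 in double mutant and 528 in XBP1 null chondrocytes, against 214 in *Matn3* mutant and 267 in wild type. It was 1.82-fold higher in double mutant than in *Matn3* mutant and 1.97-fold higher in XBP1 null than in wild type. The other *Dkk3* probe set gave 1.72-fold and 2.06-fold for the same comparisons. For *Matn3* mutant against wild type the probe sets differed in direction, with log2 values of -0.32 and 0.15.

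*Wif1* and *Frzb*, both secreted proteins that bind WNT ligands, had high signals on every array. *Wif1* had signals of 9022 to 10187 and *Frzb* of 5493 to 7262, with no difference over 1.5-fold. The other *Frzb* probe set was 1.75-fold lower in *Matn3* mutant (2028) than in wild type (3545). *Sostdc1* was dim, at 48.7 to 65.0. Its other probe set, below the median, had signals of 2.94, 0.705 and 1.56 in double mutant, *Matn3* mutant and XBP1 null chondrocytes, against 18.2 in wild type.

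*Axin2*, a transcriptional target of β-catenin that feeds back to degrade it, had signals of 77.9 in double mutant, 49.2 in *Matn3* mutant and 72.1 in XBP1 null chondrocytes, against 76.2 in wild type. The *Matn3* mutant array was the low one, 1.55-fold under wild type, with the double mutant 1.58-fold above it. *Lef1*, a nuclear partner of β-catenin, had signals of 345, 287 and 273 in double mutant, *Matn3* mutant and XBP1 null chondrocytes, against 184 in wild type. It was 1.56-fold higher in *Matn3* mutant than in wild type, and its dim probe set, with signals of 11.7 to 25.9, went the other way (log2 difference of -0.83).

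Each genotype change was measured on both backgrounds, in comparisons that share no array. With the *Matn3* mutation, 1 member was over 1.5-fold higher on both XBP1 backgrounds, *Wnt6* (1 of 25, against 2.05% of all genes at or above the median). Without the mutation *Wnt6* was under the filter level of 41.6, so it passed the filter only through the arrays where it was high. Lower on both were *Fzd8* and *Wnt5a* (2 of 25, against 2.70%), and *Fzd4* and *Sfrp4* went in opposite directions (2 of 25, against 3.89%). With the loss of XBP1, *Dkk3* and *Fzd6* were higher on both *Matn3* backgrounds (2 of 25, against 2.33%), 0 members were lower on both (against 0.337%), and *Sfrp2* and *Sfrp5* went in opposite directions (2 of 25, against 3.03%). With counts of 0 to 2 members, these shares describe the named genes and not the group.

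**Figure D3:**
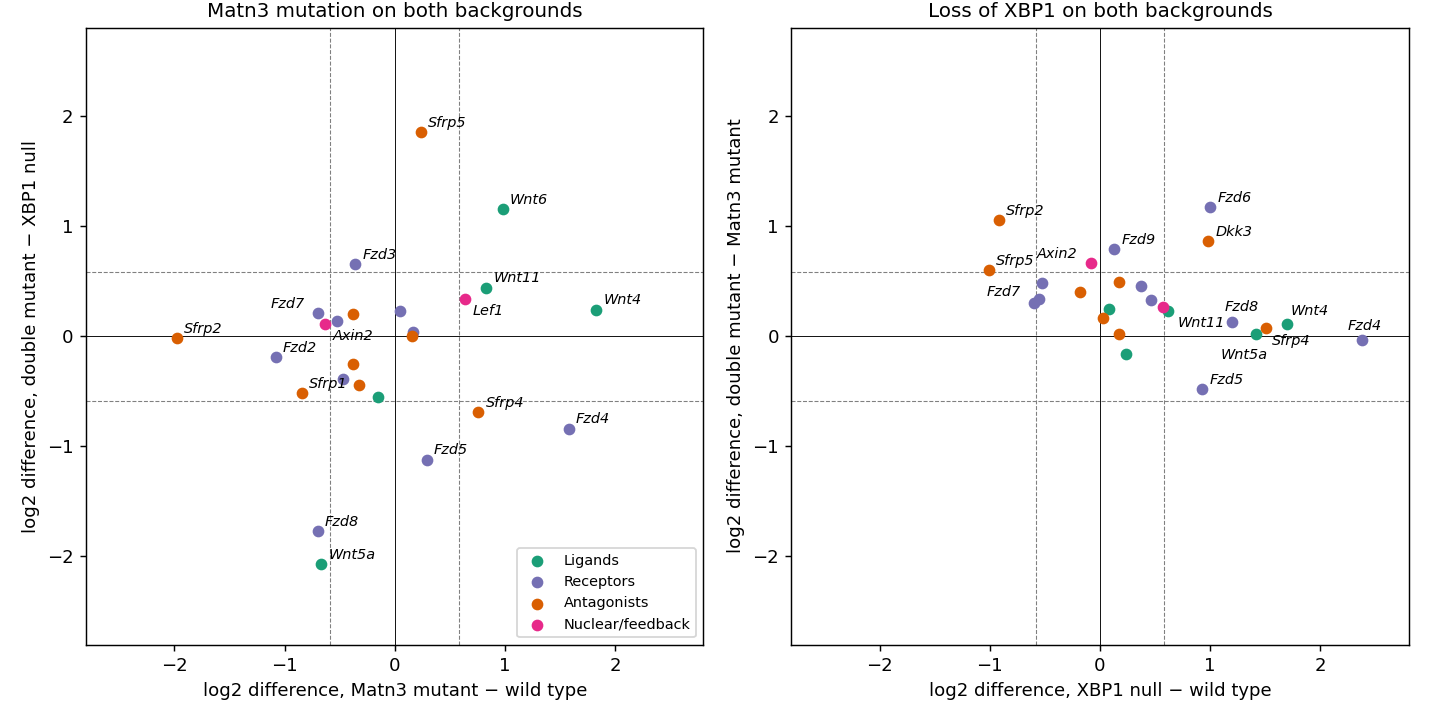
Log2 differences of the 25 members for the *Matn3* mutation (left) and for the loss of XBP1 (right), with the XBP1 intact or *Matn3* wild type background on the horizontal axis and the mutant background on the vertical axis, and dashed lines at 1.5-fold. *Wnt6* (0.98 and 1.15) lies in the upper right corner of the left panel, and *Dkk3* (0.98 and 0.86) in that of the right panel, next to *Fzd6*.

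By array, 12 of the 25 members were highest in double mutant (48.0%, against 31.0% of all genes at or above the median), 0 in *Matn3* mutant (against 9.71%), 10 in XBP1 null (40.0%, against 34.2%) and 3 in wild type (12.0%, against 25.1%). The members highest in wild type were *Fzd2*, *Fzd7* and *Sfrp2*. The *Matn3* mutant array was the lowest for 12 of the 25 (48.0%, against 42.7%).

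A fit with additive effects of both genotypes, which leaves 1 residual degree of freedom, was made over all 45037 probe sets in limma. No probe set was called for either effect at an adjusted p of 0.05 (0% for the *Matn3* mutation and 0% for the loss of XBP1), and neither was any member. At an unadjusted p under 0.05 in limma there were 3381 probe sets (7.51%) for the *Matn3* mutation and 2052 (4.56%) for the loss of XBP1. Of the 45 members there were 5 (11.1%) and 6 (13.3%). Those at or above the median were *Fzd1* and *Sfrp1* for the *Matn3* mutation and *Dkk3*, *Fzd1* and *Fzd6* for the loss of XBP1. The others, below the median, were *Wnt1*, *Wnt3a* and *Wnt9b* for the *Matn3* mutation and *Dkk2*, *Wnt3a* and *Wnt9a* for the loss of XBP1. Signals of *Wnt1* in wild type (0.781) and of *Dkk2* in *Matn3* mutant (0.778) were under 1 and had been set to 1.

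*Dkk3* had an additive effect of the loss of XBP1 of 0.92 ± 0.112 on the log2 scale (SE, 4 arrays) and *Fzd6* one of 1.09 ± 0.155, both with an adjusted p of 0.819 in limma. *Wnt6* had an additive effect of the *Matn3* mutation of 1.07 ± 0.275 (adjusted p = 0.635 in limma). The error of this fit comes from the departure of a gene from additivity, which eBayes draws towards that of probe sets of like intensity. It is large for genes such as *Wnt5a* (-1.37 ± 0.530 for the *Matn3* mutation), which were far from additive. It is not the departure of the gene alone: *Lrp5* departed from additivity by 0.02 and had an SE of 0.374.

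The 20 members below the median, 14 ligands, 2 receptors and 4 antagonists, had signals of at most 86.5. With them, over all 45 members, 15 were higher and 11 lower in *Matn3* mutant than in wild type (against 21.2% and 19.3% of all genes), and 19 higher with 5 lower in XBP1 null than in wild type (against 23.3% and 11.5%). In double mutant against *Matn3* mutant 12 were higher and 3 lower (against 17.4% and 9.03%), and against XBP1 null 8 were higher and 10 lower (against 16.6% and 16.9%). *Wnt2b*, *Wnt3* and *Wnt10b* were under a signal of 1 on every array, where values were set to 1, so a fold cannot be read for them.

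*Sost*, which encodes the osteocyte product sclerostin, had signals of 5.86 in double mutant, 86.5 in *Matn3* mutant and 20.4 in XBP1 null chondrocytes, against 13.6 in wild type. Only in the *Matn3* mutant was it above the array median of 43.8, and the other *Sost* probe set was under 1 on all of them. The brightest *Wnt7a* probe set had signals of 31.7, 25.8 and 31.6 in double mutant, *Matn3* mutant and XBP1 null chondrocytes, against 15.6 in wild type. The next *Wnt7a* probe set had 1.38, 11.8 and 4.17, against 0.838 in wild type, so its size of difference rests on signals near the floor.

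*Dkk2* (4.86, 0.778 and 63.5 in double mutant, *Matn3* mutant and XBP1 null chondrocytes, against 3.36 in wild type) and *Wnt9a* (17.5, 3.37 and 53.0, against 15.1) were above the median only on the XBP1 null array. *Lrp5*, the other LRP co-receptor, had signals of 49.1, 25.6 and 35.3 in the mutants, against 18.7 in wild type. *Fzd10* had 32.6, 11.6 and 41.7, against 2.16 in wild type.

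Probe sets of 1 gene read the same RNA pool. Their agreement is a check of the probes and not of whether a difference would recur in other pools. For the 12 members with at least 2 probe sets at or above the median, the log2 differences of the brightest probe set and the next were apart by a median of 0.45 in *Matn3* mutant against wild type, 0.29 in XBP1 null against wild type, 0.21 in double mutant against *Matn3* mutant and 0.34 in double mutant against XBP1 null. For all 4982 such genes the medians were 0.30, 0.21, 0.17 and 0.25. Where the brightest probe set was over 1.5-fold, the next went the same way in 4 of 5 members, 5 of 5, 1 of 1 and 5 of 5, against 84.6%, 85.8%, 91.6% and 85.4% of all such genes, and the exception was *Fzd4* in *Matn3* mutant against wild type. The next probe set was itself over 1.5-fold that way in 2 of 5, 4 of 5, 1 of 1 and 4 of 5.

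**Figure D4:**
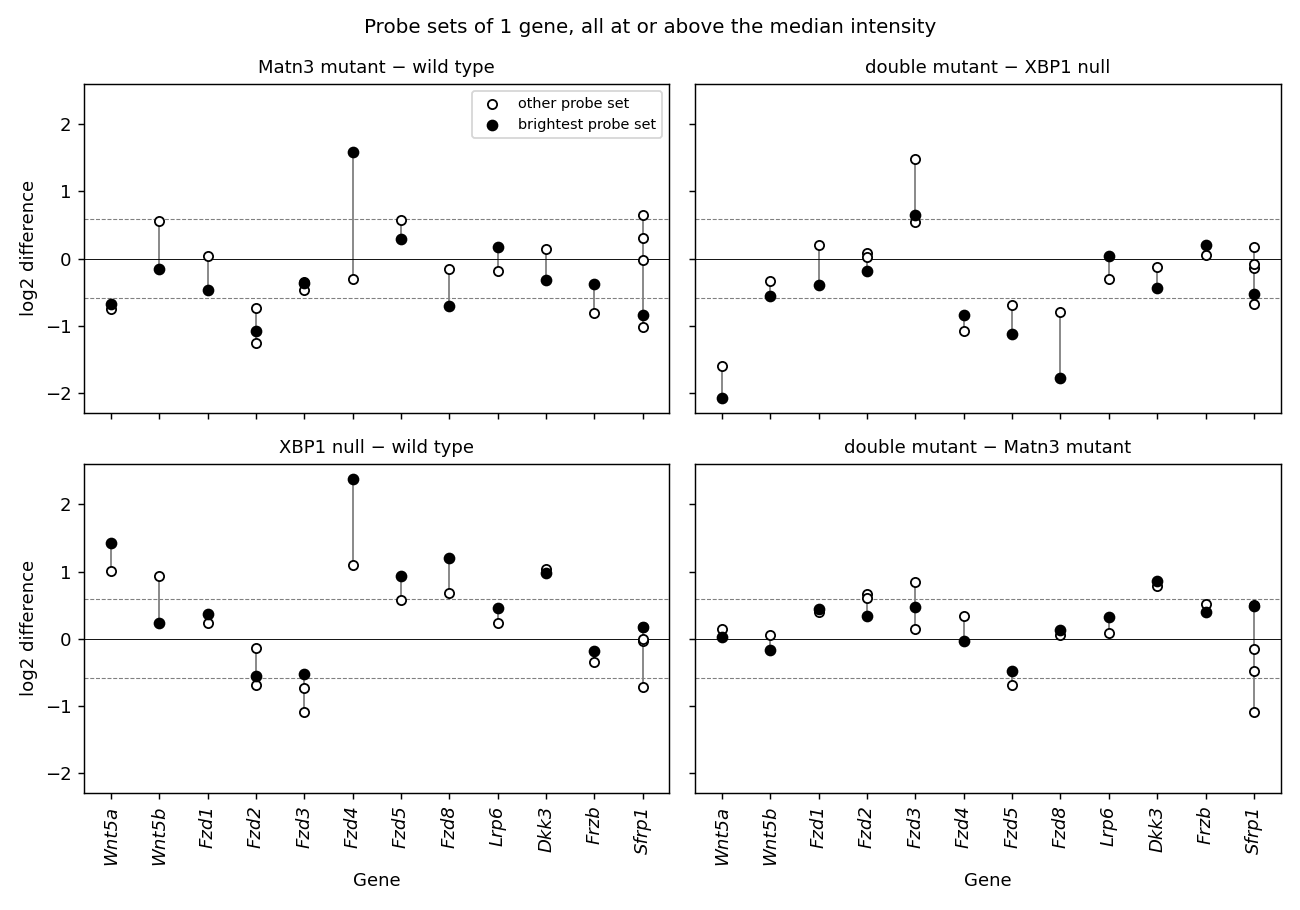
Log2 differences of the brightest (filled) and the other (open) probe sets for the 12 members with at least 2 probe sets at or above the median intensity, with 1 panel per comparison and dashed lines at 1.5-fold. The *Fzd4* probe sets lie at 1.58 and -0.31 in the panel of *Matn3* mutant against wild type, and those of *Dkk3* at 0.98 and 1.04 in that of XBP1 null against wild type.

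Other genes of the pathway were counted from lists of receptors, secretion and modulators, of transducers, of planar cell polarity and of transcriptional targets. The lists are small, and the shares of all genes at or above the median stand beside the first counts. Of 18 modulators at or above the median, 3 were over 1.5-fold higher and 5 lower in *Matn3* mutant against wild type (all genes 13.2% and 17.6%), 6 and 2 in XBP1 null against wild type (18.8% and 5.82%), 4 and 0 in double mutant against *Matn3* mutant (11.9% and 3.00%), and 0 and 1 in double mutant against XBP1 null (7.38% and 10.5%). Of 19 transducers, the counts in the same order were 3 and 3, 3 and 0, 4 and 0, and 1 and 0. Of 9 genes of planar cell polarity they were 2 and 1, 3 and 1, 2 and 1, and 1 and 2, and of 10 transcriptional targets 2 and 1, 4 and 1, 3 and 0, and 4 and 1. *Ctnnb1*, which encodes β-catenin, had signals of 9595 to 11628 and was within 1.5-fold in all 4 comparisons.

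Of these 56 other genes at or above the median, 4 were over 1.5-fold the same way on both backgrounds for at least 1 genotype change (7.14%, against 6.80% of all genes at or above the median). That share is near the background, so the values of the 4 are given as a description. *Celsr1*, below the median, did so as well and is not described. Of the 4, *Rspo2* in *Matn3* mutant and *Ccn5* and *Tbx6* in wild type were under the filter level of 41.6. These genes passed the filter through their other arrays. *Rspo2*, an R-spondin that amplifies WNT signals, had signals of 67.6 in double mutant, 24.7 in *Matn3* mutant and 183 in XBP1 null chondrocytes, against 87.6 in wild type. It was lower with the *Matn3* mutation (log2 differences of -1.82 and -1.44) and higher with the loss of XBP1 (1.06 and 1.45), and its other probe set, with signals of 31.0 to 69.6, went the other way for the *Matn3* mutation (0.70 and 0.99).

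*Ccn5*, a matricellular protein gene induced by WNT signals, had signals of 235, 118 and 97.5 in double mutant, *Matn3* mutant and XBP1 null chondrocytes, against 26.1 in wild type. It was higher with the *Matn3* mutation (2.18 and 1.27) and with the loss of XBP1 (1.90 and 0.99). *Tbx6*, a transcription factor of the early mesoderm, was higher with the *Matn3* mutation on both backgrounds (2.37 and 0.73), with signals of 144, 153 and 87.0, against 29.6 in wild type. *Tnfrsf19*, a member of the tumour necrosis factor receptor family, was lower with it on both (-1.30 and -0.92), with signals of 106, 65.2 and 200, against 160 in wild type, and its dimmest probe set went the other way (1.31 and 0.47).

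Markers of other cell types also differed between the arrays. The 16 markers of perichondrium and fibroblasts summed to signals of 108919 in double mutant, 86520 in *Matn3* mutant and 118205 in XBP1 null chondrocytes, against 90239 in wild type. Of these, 10 were over 1.5-fold higher in XBP1 null than in wild type and 8 higher in double mutant than in *Matn3* mutant, with 0 lower in both. With the *Matn3* mutation, 4 were lower and 1 higher against wild type, and 6 were lower and 0 higher in double mutant against XBP1 null.

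All 11 endothelial markers were over 1.5-fold higher in XBP1 null than in wild type and lower in double mutant than in XBP1 null, and *Pecam1* was under a signal of 1 on every array but that of XBP1 null (87.7). The 6 measured osteoblast markers summed to 387 in double mutant, 287 in *Matn3* mutant and 942 in XBP1 null chondrocytes, against 478 in wild type, and 8 of keratinocytes and epithelium to 1439, 1920 and 4832, against 1880 in wild type. *Epcam* made up 2645 of the 4832. By gene, 5 of the 8 were over 1.5-fold higher and 1, *Krt5* (33.1 against 65.1), was lower in XBP1 null than in wild type. The XBP1 null array was the highest for all of these lists, as it was for 10 of the 25 members, *Wnt5a*, *Wnt5b*, *Fzd1*, *Fzd4*, *Fzd5*, *Fzd8*, *Dkk3*, *Sfrp1*, *Sfrp4* and *Sostdc1*, and it was the lowest for *Fzd3* and *Sfrp5*. The part of these cells in the differences of the members was not tested.

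The 6 tendon markers summed to 31229 in double mutant, 26678 in *Matn3* mutant and 30908 in XBP1 null chondrocytes, against 24548 in wild type. *Fmod* made up most of that sum, and by gene 3 of the 6 were lower and 0 higher in *Matn3* mutant than in wild type, with 4 higher and 0 lower in double mutant than in *Matn3* mutant. The 12 markers of skeletal muscle summed to 2822, 2027 and 2723, against 3181, most of it from *Tnnt3*, and by gene 10 were higher and 0 lower in XBP1 null than in wild type. The 9 of leukocytes summed to 4783, 5770 and 6884, against 2512, most of it from *Cd14*. The 14 chondrocyte markers summed to 176027, 167118 and 161339, against 150684 in wild type, with at most 1 over 1.5-fold in any comparison, and 9 of hypertrophic chondrocytes to 4013, 3366 and 5221, against 5140. By gene, 1 of the 9 was higher and 5 lower in *Matn3* mutant than in wild type, and 3 higher and 2 lower in XBP1 null than in wild type. In double mutant, 2 were higher and 1 lower against *Matn3* mutant, and 2 higher and 4 lower against XBP1 null.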

How the data were processed

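The 4 samples were costal chondrocytes, isolated with collagenase from pooled litters, of 1 array per genotype. The authors hybridized RNA pooled from 3 extractions to a whole-genome mouse 3' expression array (Mouse430_2) and deposited linear intensities (signals) of 45037 probe sets. Summarization and scaling, not given in the sources used here, left array medians of 43.8 each. Their methods name Microarray Suite 5 for control hybridizations and PPLR, with a 1.5-fold threshold, which needs errors of single probes and was not applied here.

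Values under 1 (8.36% to 10.9% per array) were raised to 1 and log2 was taken. Of the probe sets, 34945 name 1 gene symbol, 932 several and 9160 none, and those naming several were left out of results for genes. Genes whose mean log2 reached the median of all probe sets were counted over 1.5-fold. Values on every array were given for such members over 1.5-fold in any comparison and for *Sfrp2*, *Sost* and *Wnt7a*, and the other genes of the pathway by the same difference on both backgrounds. Members, lists and markers were chosen with earlier results of these data known. The additive fit used limma 3.58.1 in R 4.3.3, with eBayes, a trend on intensity and Benjamini-Hochberg adjustment over all probe sets, and was tested on simulated data. Counts and figures were produced in Python 3.11.15 (pandas 2.3.3, numpy 2.4.6 and matplotlib 3.10.9). Promoters came from the RefSeq table of GRCm38.p6. The 250 bases upstream of each start were printed and motifs were searched on both strands of windows with 250 bases before and 50 after the start. The GC box was added after the sequences had been seen. The number of arrays limits the precision.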

Additional observations from a re-analysis of the deposited data

Results flagged for a closer look

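For 4 members the difference went over 1.5-fold in opposite directions on the 2 backgrounds of the same comparison, and with 1 array per genotype this change of direction was not tested. *Fzd4* was higher with the *Matn3* mutation where XBP1 was intact (1.58 on the log2 scale) and lower where it was lost (-0.84), a difference of -2.42 between the backgrounds. The next brightest *Fzd4* probe set was lower on both backgrounds (-0.31 and -1.08) and did not show this turn. *Sfrp4* gave 0.76 and -0.69 in the same way, a difference of -1.44. *Sfrp2* was lower with the loss of XBP1 where *Matn3* was wild type (-0.92) and higher where it was mutant (1.05), a difference of 1.97. *Sfrp5* gave -1.01 and 0.60, a difference of 1.60, and the 0.60 became 0.49, under 1.5-fold, after quantile normalization.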

How the results depend on the processing

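With 1 array per genotype, no replicate could be left out, and no paired analysis was possible because the groups hold 1 sample each. Counts are of the 25 members at or above the median unless said, as higher and lower in *Matn3* mutant against wild type (6 and 7), XBP1 null against wild type (9 and 3), double mutant against *Matn3* mutant (6 and 0) and double mutant against XBP1 null (3 and 5). At a 2-fold threshold they were 2 and 2, 5 and 1, 2 and 0, and 2 and 3. Without the filter on low signals, over all 45 members, they were 15 and 11, 19 and 5, 12 and 3, and 8 and 10. With the median over the probe sets of a gene, which left 18 members over the filter, they were 4 and 3, 8 and 1, 4 and 0, and 0 and 4. Shares of all genes were not computed at 2-fold, with this median or after quantile normalization, so those counts have no background beside them. Quantile normalization gave 5 lower in XBP1 null, and ended the calls of *Wnt11* there (0.53) and of *Sfrp5* in double mutant against *Matn3* mutant (0.49). Of 84 single-gene log2 differences, 8 turned sign with the median over probe sets. *Lef1* in *Matn3* mutant against wild type (-0.09 in place of 0.64) was the only 1 of the 8 over 1.5-fold before, and the others included *Fzd6* in double mutant against XBP1 null (-1.32 in place of 0.23) and *Wnt7a* in double mutant against *Matn3* mutant (-3.09 in place of 0.30). With that setting *Fzd8* (-0.43), *Sfrp1* (-0.04), *Fzd7* (-0.33) and *Axin2* (-0.32) fell within 1.5-fold in *Matn3* mutant against wild type, and *Fzd4* there was 0.78. The other probe set of *Axin2* had signals of at most 0.159 and that of *Fzd7* of at most 2.24. For *Axin2* and *Fzd7* the median thus averages in signals at or near the floor. Centring of each array on its median, a floor at the 25th percentile and dropping probe sets whose suffix marks cross-hybridization kept each of these counts within 1.5 times. A fit restricted to probe sets that reach the median called 13 for the *Matn3* mutation, of which 0 were members, and 0 for the loss of XBP1. No member was called under any of the 4 alternative fits.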
